A study of Mus musculus with 48 samples.

Results

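The Period genes Per1, Per2 and Per3 were followed through a day of the circadian cycle in mouse fibroblasts with and without a hairpin against the clock activator Bmal1. They were taken by name, and all 3 were present among the 11313 genes of both the exon and the intron table. The cells were NIH 3T3, an immortalised line of mouse embryonic fibroblasts, of genotype shCTRL (a control hairpin) or shBmal1 (a hairpin against Bmal1, which the tables list as Arntl). Both lines had been synchronised with 50% horse serum for 2 h and were collected every 2 h from 24 to 46 h. Each of the 4 groups (shCTRL total RNA, shBmal1 total RNA, shCTRL 4sU RNA and shBmal1 4sU RNA) held 12 libraries, 1 per time point. The 4sU libraries held RNA labelled with 4-thiouridine, a uridine analogue, and pulled down with streptavidin, so they sampled newly made RNA; the share of RNA entering the pull-down differed between the lines per the labels' protocols. One line of each kind was studied, without repeat libraries at any time point, so the p-values below measure how single libraries scatter around fitted curves and not how independent lines or cultures vary.

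Period proteins form the repressing arm of the mammalian clock. The activators CLOCK and BMAL1 bind E-box sequences in the Period and Cryptochrome genes, and the PER and CRY proteins made from them return to the nucleus and repress that activity until they are degraded, which closes a daily loop. PER1 and PER2 are core parts of the repressing complex, and Per1 and Per2 are also induced directly by serum, cAMP and glucocorticoid signals, whereas PER3 is a weaker repressor whose gene is known as an output of the same loop and of D-box factors such as DBP and TEF.

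On the GRCm38.p6 mouse build Per1 spans chr11:69095108-69109965, Per2 spans chr1:91415977-91459351 and Per3 spans chr4:150997018-151044707. The 250 bases before annotated starts of Per1 and Per3 are shown because they carry the kinds of element named above; 2 of the 3 genes had an entry in the RefSeq promoter table of that build. Capitals mark the letters searched for on both strands: CACGTG and CACGTT (E-boxes), TTATGTAA (a D-box), TGACG (the core of a cAMP response element, which also lies inside the full element TGACGTCA) and AGGTCA (the half-site bound by ROR and REV-ERB factors, seen on the other strand as TGACCT).
Per1 start at 69098949 (chr11:69098699-69098948, forward strand): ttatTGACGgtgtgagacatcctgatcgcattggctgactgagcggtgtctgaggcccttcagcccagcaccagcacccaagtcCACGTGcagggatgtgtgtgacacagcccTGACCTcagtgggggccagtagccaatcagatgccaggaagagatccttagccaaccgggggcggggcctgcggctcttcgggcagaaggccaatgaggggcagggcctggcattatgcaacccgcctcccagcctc
Per1 start at 69100152 (chr11:69099902-69100151, forward strand): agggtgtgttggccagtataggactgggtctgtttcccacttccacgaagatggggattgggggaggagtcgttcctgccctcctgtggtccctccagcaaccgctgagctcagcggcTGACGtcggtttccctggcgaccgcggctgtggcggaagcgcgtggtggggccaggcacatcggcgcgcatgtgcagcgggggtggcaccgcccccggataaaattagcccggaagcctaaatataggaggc
Per3 start at 151044665 (chr4:151044666-151044915, reverse strand): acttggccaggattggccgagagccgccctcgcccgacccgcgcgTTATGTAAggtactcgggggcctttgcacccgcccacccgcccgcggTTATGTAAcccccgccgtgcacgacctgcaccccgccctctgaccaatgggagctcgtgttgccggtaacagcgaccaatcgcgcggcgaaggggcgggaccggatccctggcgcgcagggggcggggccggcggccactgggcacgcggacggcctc

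The first Per1 window held the E-box CACGTG 166 bases before the start, TGACG at 246 bases and AGGTCA on the other strand at 137 bases. In the second Per1 window only TGACG was found, 132 bases before the start. The Per3 window held TTATGTAA 205 and 158 bases before the start and none of the other letters. Among 32851 promoter windows of the same length, 6.02% held CACGTG, 3.85% CACGTT, 0.819% TTATGTAA, 1.55% TGACGTCA, 17.8% TGACG and 14.0% AGGTCA. These matches describe letters within the windows and were not tested against the expression values.

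Libraries held 48873013 to 76260143 reads by the exon totals recovered from the deposited values. Exon reads on Per1 numbered 2317 to 10161 per library, those on Per2 384 to 4839 and those on Per3 398 to 3898. Arntl, the targeted gene, had a total exon level of 1.33 to 17.3 RPKM (median 8.74) in shCTRL and 2.25 to 4.71 (median 3.95) in shBmal1. It was lower in shBmal1 at 9 of 12 time points, the exceptions being 24, 26 and 46 h, and its mean differed by -0.92 ± 0.081 on the log2 scale (limma adjusted p = 3.59e-09). Of the 12 fibroblast markers 10 were listed, with a summed 5768 to 6656 RPKM in shCTRL and 5180 to 5949 in shBmal1. Krt14, the 1 of 7 epithelial markers listed, was 2.09 to 4.32 RPKM in shCTRL and 7.64 to 13.6 in shBmal1, and the 3 of 7 leukocyte markers listed (Cd68, Cd14 and Lyz2) summed to 12.8 to 20.0 and 17.2 to 25.2 RPKM. The endothelial Cdh5 reached at most 0.533 and 0.920 RPKM, the muscle Des 0.948 and 2.04 and the adipocyte Plin4 4.36 and 2.86, each the 1 of 4 markers listed, and 0 of 4 neural markers were listed. For all of these their part in the results on the Period genes was not tested.

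Per1 was the most abundant of the 3 at each of the 12 time points in both lines and both kinds of RNA. Levels are given as RPKM (reads per kilobase of exon, scaled to the library's total reads) after scaling each library to the median gene, which allows genes to be compared per length. In shCTRL total RNA Per1 ranged from 8.64 RPKM at 38 h to 28.3 at 24 h (median 13.4). In shBmal1 it ranged from 11.6 at 34 h to 21.2 at 46 h (median 15.2), so the hairpin line lay inside the control range throughout.

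Per2 and Per3 changed places between the lines in total RNA and in 4sU introns. Per2 total RNA ran from 1.17 RPKM at 38 h to 8.69 at 26 h in shCTRL (median 2.85) and from 2.52 at 44 h to 5.19 at 26 h in shBmal1 (median 3.30). Per3 ran from 1.96 at 36 h to 9.42 at 24 h in shCTRL (median 4.08) but only from 1.10 at 36 h to 2.33 at 24 h in shBmal1 (median 1.56). The mean of Per3 was above that of Per2 in shCTRL, at 4.56 ± 2.47 against 3.78 ± 2.66 RPKM (SD over the 12 time points), a gap smaller than either spread. Per2 exceeded Per3 at 1 of 12 time points in shCTRL (26 h) and at 12 of 12 in shBmal1, where the means were 3.49 ± 0.85 for Per2 and 1.61 ± 0.38 for Per3. In 4sU intron RNA Per2 exceeded Per3 at 0 of 12 time points in shCTRL and at 11 of 12 in shBmal1, all but 44 h. This RNA is used here as the measure of synthesis, relative to the median gene of each library. The labels do not give the labelling time. In 4sU exon RNA Per2 exceeded Per3 at 6 of 12 time points in shCTRL and at 12 of 12 in shBmal1. Its mean there was already 1.19 times that of Per3 in shCTRL, and 2.76 times in shBmal1.

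**Figure D1:**
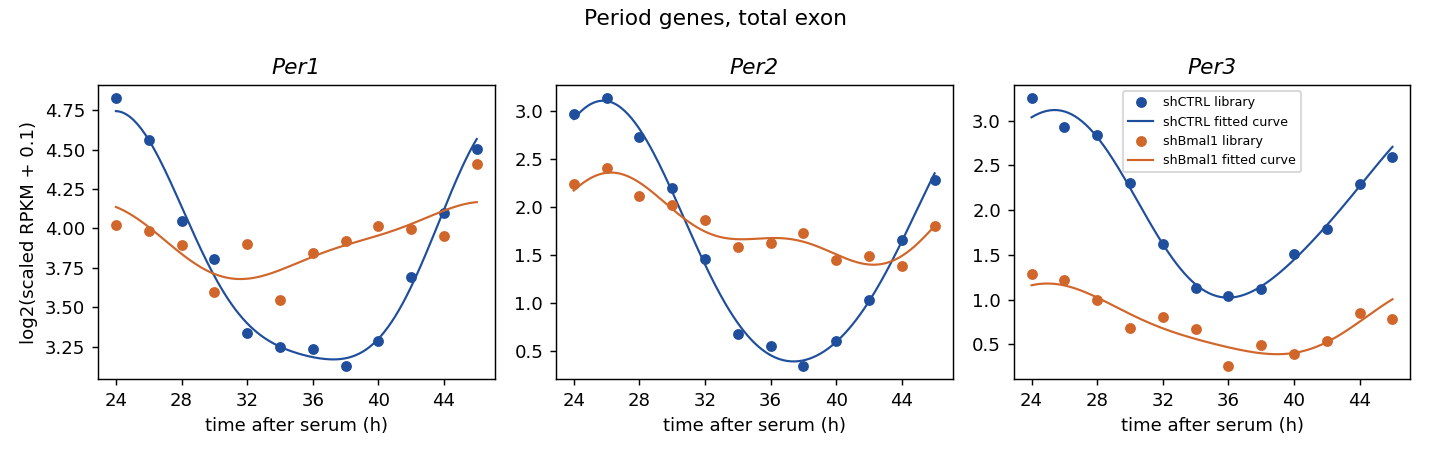
Total exon level of Per1, Per2 and Per3 as log2(scaled RPKM + 0.1) against time after serum in h; points are single libraries (blue shCTRL, orange shBmal1) and lines the fitted curves with 24-h and 12-h terms, and each panel has its own axis range. The shBmal1 points are flatter than the shCTRL points in all 3 panels, cross them for Per1 and Per2, and lie below them at 12 of 12 time points for Per3.

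Per3 RNA was much lower in the hairpin line, while the mean levels of Per1 and Per2 moved little. Over the 12 time points Per3 total RNA differed by -1.29 ± 0.061 (log2, shBmal1 minus shCTRL, standard error of the limma fit, adjusted p = 1.69e-13), Per2 by 0.17 ± 0.048 (adjusted p = 0.00385) and Per1 by 0.11 ± 0.051 (adjusted p = 0.0637). Thus 2 of the 3 Period genes passed the test in total RNA, 1 higher and 1 lower, in a comparison that 67.6% of the 10906 tested genes passed, 34.4% higher and 33.1% lower. A fall of at least 1 on the log2 scale was less common, at 1.36% of all tested genes, and Per3 was the 1 Period gene with a difference of that size; its rank from the lowest was 71. In RNA from bulk cultures, fewer cells with Per3 RNA and less Per3 RNA per cell cannot be told apart. The Per1 difference passed the test when the RPKM were used as deposited (0.20, limma adjusted p = 0.00118), with a linear term for time (0.0486), or without the 24 h (0.0330), 30 h (0.0226), 34 h (0.0250) or 44 h (0.0459) libraries, and the Per2 difference did not pass with a pseudocount of 1 (0.08, adjusted p = 0.0519). With the time point as a replicate block in place of the rhythm terms Per2 did not pass either (0.17, limma adjusted p = 0.405), and Per3 did (4.96e-08). Of all 10906 tested genes 7180 passed in that fit, whose residual holds any difference in rhythm.

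The small mean differences of Per1 and Per2 covered opposite differences at different times. Per1 was lower in shBmal1 at 24 h (16.2 against 28.3 RPKM) and higher at 38 h (15.1 against 8.64), the ends of a range from -0.80 to 0.79 on the log2 scale, with 6 time points lower and 6 higher. Per2 showed the same arrangement with a wider range, from -0.74 at 24 h (4.62 against 7.78 RPKM) to 1.39 at 38 h (3.22 against 1.17), again with 6 time points on each side. Both were higher in shBmal1 from 32 to 42 h and lower from 24 to 30 h and at 44 and 46 h. Per3 was lower at all 12 time points, by -1.97 at 24 h (2.33 against 9.42 RPKM) and by -0.46 at 34 h (1.49 against 2.09), so its gap was widest where the control was high and narrowest near the control trough. These values by time rest on 1 library per line and carry no test of their own.

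**Figure D2:**
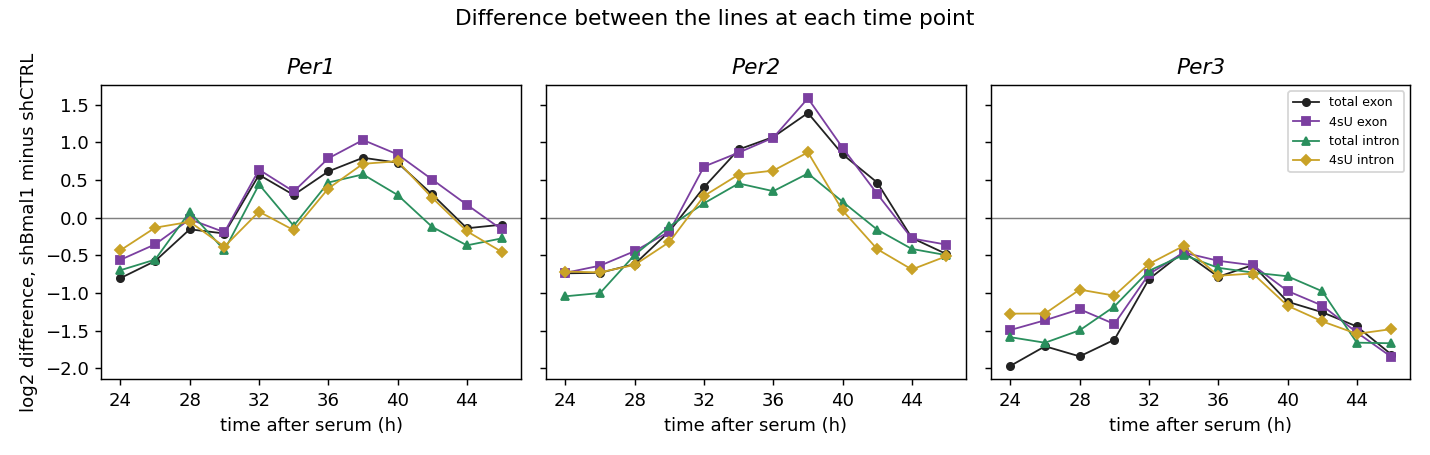
Difference between the lines (shBmal1 minus shCTRL, log2 of scaled RPKM plus pseudocount) at each time after serum in h for Per1, Per2 and Per3; each line joins the 12 single differences of one kind of RNA, exon or intron, total or 4sU. Per1 and Per2 cross 0 in every kind, whereas Per3 stays below 0 at 12 of 12 time points in all 4.

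Synthesis of Per3 was lower in shBmal1, on the scaled values by less than its RNA level, and the mean synthesis of Per1 and Per2 did not pass the test. In 4sU intron RNA Per3 ran from 0.268 to 1.05 RPKM in shCTRL (median 0.464) and from 0.149 to 0.424 in shBmal1 (median 0.204). The difference was -1.05 ± 0.046 (limma adjusted p = 1.37e-12). Over the other settings it ran from -1.50 to -0.71, against -1.33 to -0.98 for Per3 in total exon RNA, so which of the 2 fell more depended on the setting. Per2 differed by -0.13 ± 0.055 (adjusted p = 0.0609) and Per1 by 0.03 ± 0.052 (0.649; -0.44 on deposited RPKM and -0.0091 without the 32 h libraries), so 1 of 3 passed a test that 44.4% of the 10494 tested genes passed. The share of tested genes lower by at least 1 was 0.353%, and Per3 stood at rank 32 from the lowest. The Per2 value passed without the 38 h (-0.17, adjusted p = 0.0266) or 46 h (-0.15, 0.0470) libraries, with a pseudocount of 0.2 (-0.13, 0.00537), on exon totals with no scaling (-0.15, 0.0388) and as deposited (-0.58, 1.51e-08), the last on a scale that moved the median of all genes by -0.45.

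The remaining kinds of RNA gave the same picture for Per3. Its difference was -1.12 ± 0.069 in 4sU exon RNA (limma adjusted p = 1.12e-10) and -1.13 ± 0.058 in total intron RNA (9.86e-12), with shBmal1 lower at 12 of 12 time points in each. In 4sU exon RNA Per1 was higher by 0.25 ± 0.052 (adjusted p = 0.000453) and Per2 by 0.23 ± 0.067 (0.00683), so all 3 passed where 54.4% of 11011 tested genes did. In total intron RNA Per2 was lower by -0.16 ± 0.052 (adjusted p = 0.0132) and Per1 by -0.06 ± 0.065 (0.456), so 2 of 3 passed where 56.1% of 10011 did. For Per2 the sign thus differed between the exon values, which were higher in shBmal1 in both kinds of RNA, and the total intron value, which was lower. Without the 12-h terms the Per2 total intron difference had an adjusted p of 0.0592. With the time point as a replicate block Per3 alone passed in both kinds, where 5749 of 11011 and 5286 of 10011 tested genes passed. The adjusted p was then 0.102 for Per1 and 0.306 for Per2 in 4sU exon RNA and 0.344 for Per2 in total intron RNA (limma).

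RNA level relative to synthesis differed in opposite directions for Per2 and Per3, although the sign for Per3 was the reverse on RPKM as deposited. The log2 difference of total exon minus 4sU intron was taken between libraries of the same line and time point. It was higher in shBmal1 for Per2, by 0.30 ± 0.045 (limma adjusted p = 2.71e-05), and lower for Per3, by -0.24 ± 0.051 (0.000957). For Per1 it differed by 0.08 ± 0.047 (0.183), so 2 of 3 passed where 44.2% of 10294 tested genes did. By time, the Per2 difference lay above 0 at 10 of 12 time points and was largest at 42 h (0.88), and that of Per3 lay below 0 at 8 of 12, with its lowest value at 28 h (-0.89). These values depend on how the intron RPKM are scaled, because the deposited intron values of the shBmal1 4sU libraries rested on library totals that, relative to the exon totals, were 1.35 to 1.39 times those of the other 36 libraries. The intron total of 1 reference library was assumed to equal its exon total, so this ratio between libraries is recovered and the absolute intron total is not. The Per2 difference was 0.83 on deposited RPKM and 0.40 on exon totals with no scaling. On deposited RPKM the Per3 difference was 0.29 (adjusted p = 6.37e-05), the opposite sign, and on exon totals with no scaling it was -0.13 (0.0740); Per1 passed under both, at 0.63 (1.81e-10) and 0.19 (0.00188).

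The 4sU/total ratio, which sets newly made exon RNA against the total exon RNA of the same line and time point, was higher in shBmal1 for Per1 and Per3. Both kinds of RNA were scaled to their own median gene, so the ratio is relative to that gene. The difference was 0.14 ± 0.033 for Per1 (limma adjusted p = 0.00416), with shBmal1 higher at 11 of 12 time points, and 0.17 ± 0.047 for Per3 (0.0123), higher at 8 of 12. That of Per2 was 0.06 ± 0.052 (0.394). The ratio passed the test for 28% of 10866 genes, against 2 of the 3 Period genes. With the time point as a replicate block Per3 did not pass (limma adjusted p = 0.0576), where 2349 of 10866 tested genes did. In Per3 the largest single values came early, at 28 h (0.63), 24 h (0.48) and 26 h (0.35), and those from 32 to 46 h lay between -0.08 and 0.21.

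All 3 Period genes had a strong daily rhythm in the control line. Its size is given as the 24-h amplitude, the log2 height of the fitted 24-h curve above its mean. In shCTRL total RNA it was 1.36 ± 0.048 for Per2, a 6.59-fold change from trough to peak, 1.03 ± 0.061 for Per3 (4.17-fold) and 0.78 ± 0.051 for Per1 (2.96-fold). These ranked 4, 10 and 17 of 10906 tested genes, whose median amplitude was 0.08, and 3 of 3 passed the test for a 24-h rhythm where 3.60% of all tested genes did. The fitted peaks came at 24.2 ± 0.25 h for Per1, 24.8 ± 0.23 h for Per3 and 25.7 ± 0.14 h for Per2, near the first sample. The 12 time points cover a 24-h cycle once, so a daily rhythm and a single slow change over the day cannot be told apart from the control curve alone. With a linear term for time added 3 of 3 still passed. That term takes up only a steady drift, so it cannot separate a rhythm from a single fall and return.

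In the hairpin line the Period genes kept between 28.1% and 37.0% of that amplitude in total RNA. The shBmal1 amplitudes were 0.22 ± 0.051 for Per1 (limma adjusted p = 0.0189), 0.38 ± 0.048 for Per2 (0.000426) and 0.38 ± 0.061 for Per3 (0.00171). All 3 passed, against 11.1% of tested genes, but with a linear term for time none did, at adjusted p of 0.320, 0.202 and 0.0760, where 11 genes of all tested still passed. The Per1 call also ended without the 30 h (0.0508), 34 h (0.111), 40 h (0.0663) or 46 h (0.107) libraries. The 46 h library held the highest Per1 level of the line.

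The rhythm itself differed between the lines for every Period gene in total RNA. In the test of the 24-h terms between lines the adjusted p was 7.53e-08 for Per2, 8.99e-05 for Per1 and 0.000618 for Per3 (limma), so 3 of 3 passed where 0.807% of tested genes did. With a linear term for time 3 of 3 passed as well. The fitted peak of Per1 in shBmal1 was at 45.0 ± 0.88 h, a shift of -3.17 h in the cycle from shCTRL, whereas Per2 peaked at 27.3 ± 0.48 h, 1.64 h later, and Per3 at 25.6 ± 0.61 h, 0.845 h later. The test covers amplitude and timing together, and the shift in timing alone was not tested; with the linear term the Per1 peak of shBmal1 came at 24.1 ± 1.7 h.

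**Figure D3:**
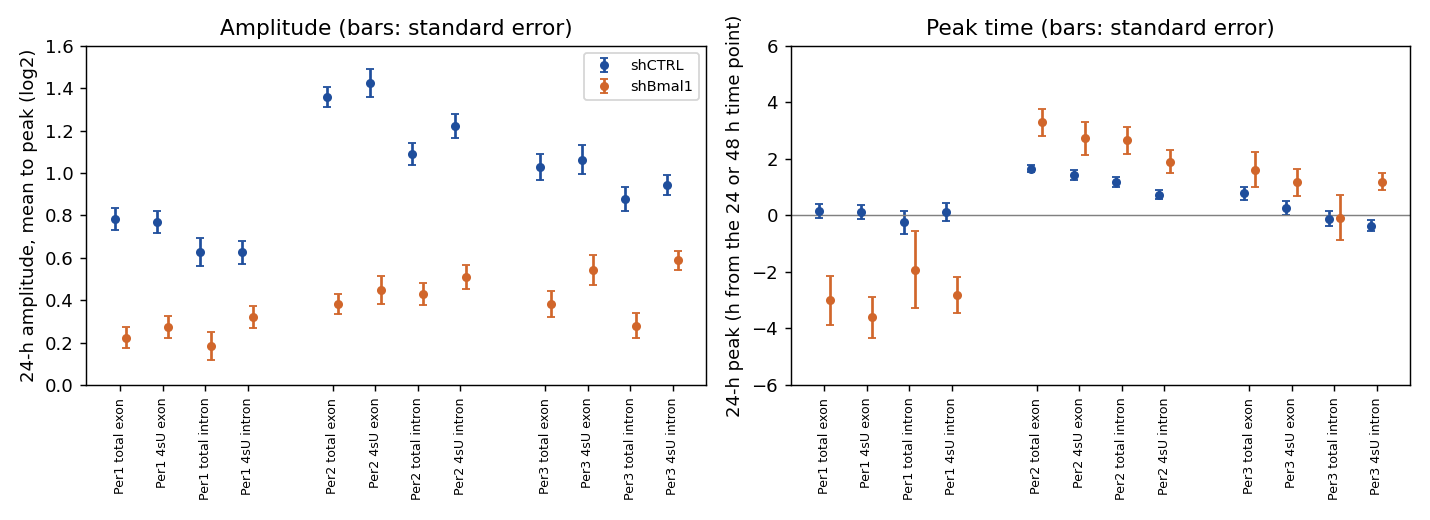
Left, 24-h amplitude (log2, mean to peak) and right, fitted peak in h from the 24 or 48 h time point, for each Period gene and kind of RNA; points are fitted values, bars standard errors, blue shCTRL and orange shBmal1. All 12 shBmal1 amplitudes lie below the shCTRL amplitudes of the same gene and kind of RNA, and Per1 peaks lie earlier in shBmal1 while Per2 peaks lie later.

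Synthesis followed the same daily course in the control. In shCTRL 4sU intron RNA the amplitude was 1.22 ± 0.055 for Per2, 0.94 ± 0.046 for Per3 and 0.63 ± 0.052 for Per1, and 3 of 3 passed where 1.12% of tested genes did. Per2 introns ran from 0.128 RPKM at 38 h to 0.845 at 26 h, and Per1 introns from 0.759 at 40 h to 2.01 at 46 h. The shCTRL amplitudes in total exon RNA given above were larger than these for each of the 3 genes, a difference that was not tested.

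In shBmal1 the fitted 4sU intron rhythm kept a larger share of its control amplitude than total exon RNA did, which total intron RNA did not show for Per3. The 4sU intron amplitude was 0.59 ± 0.046 for Per3 (limma adjusted p = 5.98e-06), 0.51 ± 0.055 for Per2 (0.000252) and 0.32 ± 0.052 for Per1 (0.00577). This was 62.4%, 41.8% and 51.0% of the control amplitude, against 37.0%, 28.1% and 28.6% in total exon RNA; the difference between these shares was not tested. All 3 passed where 5.82% of tested genes did, and the lines differed for Per2 (adjusted p = 0.000323), Per3 (0.00564) and Per1 (0.0229), where 0.286% of tested genes did. With a linear term for time the shBmal1 rhythm of Per1 did not pass (0.0935), and 2 of 3 differed between the lines. Without the 44 h libraries 1 of 3 did.

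**Figure D4:**
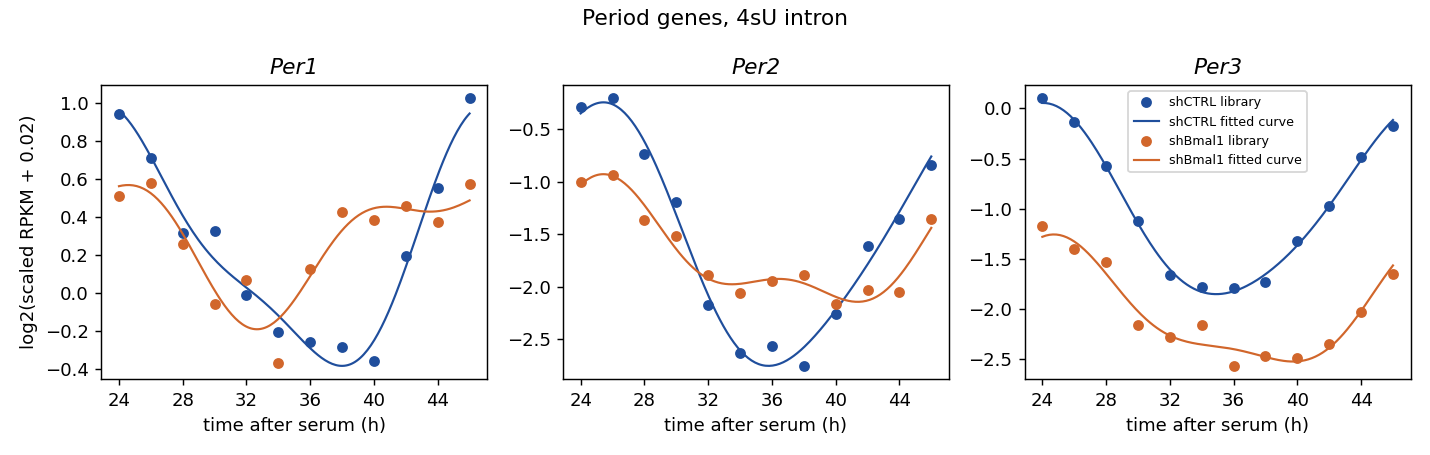
4sU intron level, the measure of synthesis, of Per1, Per2 and Per3 as log2(scaled RPKM + 0.02) against time after serum in h; points are single libraries, lines the fitted curves, blue shCTRL and orange shBmal1, and each panel has its own axis range. Per1 and Per2 of shBmal1 lie within the control range over most of the course, and Per3 of shBmal1 lies below the control at 12 of 12 time points with a visible rise at 44 and 46 h.

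In 4sU exon RNA the shCTRL amplitudes were 1.43 ± 0.067 for Per2, 1.06 ± 0.069 for Per3 and 0.77 ± 0.052 for Per1 (3 of 3 passed, against 1.98% of tested genes). Those of shBmal1 were 0.45 ± 0.067, 0.54 ± 0.069 and 0.27 ± 0.052 in the same order, and 3 of 3 passed where 18.0% did; with a linear term for time Per2 (limma adjusted p = 0.129) and Per1 (0.133) did not. The 24-h terms differed between the lines for 3 of 3, against 1.06% of tested genes. In total intron RNA 3 of 3 were rhythmic in shCTRL, against 1.34%, and 2 of 3 in shBmal1, against 5.16%, with Per1 at 0.18 ± 0.065 (adjusted p = 0.217). The Per3 call there (0.28 ± 0.058, adjusted p = 0.0228) ended without any 1 of the 24, 34, 36, 38, 40 or 42 h libraries, at adjusted p of 0.0501 to 0.112. The lines differed for Per2 (0.000148) and Per3 (0.00612) but the test was not passed by Per1 (0.0998), where 0.0999% of tested genes passed; without the 34 h libraries 1 of 3 did. Per1 intron levels are compared between lines only, since the deposited values imply an intron length of 6342 bases in the total RNA libraries and 7735 in the 4sU libraries.

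Per2 and Per3 RNA peaked after their synthesis in the control, and Per1 RNA peaked with it. The fitted total exon peak followed the 4sU intron peak by 1.13 h for Per3 (24.8 ± 0.23 against 47.6 ± 0.18 h, 1 cycle apart), by 0.924 h for Per2 (25.7 ± 0.14 against 24.7 ± 0.17 h) and by 0.053 h for Per1 (24.2 ± 0.25 against 24.1 ± 0.32 h). In shBmal1 the lag was 1.40 h for Per2, 0.427 h for Per3 and -0.193 h for Per1, with standard errors of single peaks of 0.30 to 0.88 h. All lags were shorter than the 2 h between samples, and none was tested.

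The level relative to synthesis was itself rhythmic for Per2 and Per3 in shCTRL. Total exon minus 4sU intron had an amplitude of 0.34 ± 0.045 for Per2 (limma adjusted p = 0.00332), with its peak at 29.6 ± 0.50 h, and of 0.30 ± 0.051 for Per3 (0.0295), with its peak at 29.1 ± 0.64 h; Per1 had 0.16 ± 0.047 (0.505). The 2 of 3 that passed compare with 0.175% of tested genes. In shBmal1 Per2 passed (0.21 ± 0.045, adjusted p = 0.0401, peak at 35.1 h), Per3 did not (0.21 ± 0.051, 0.0554, peak at 36.4 h) and Per1 did not (0.10 ± 0.047, 0.407), against 3.24% of tested genes. The 24-h terms differed between the lines for Per2 and Per3, both at an adjusted p of 0.0495, where 0.107% of tested genes passed. These calls depended on the model and on single time points. With a linear term for time the adjusted p in shCTRL was 0.680 for Per2 and 0.999 for Per3, the Per2 call ended without the 42 h libraries (0.0610), and the Per3 call ended without any 1 of the 28, 30, 32, 34, 36, 38, 40, 42 or 44 h libraries. The Per2 call in shBmal1 ended when any 1 time point other than 32 or 44 h was left out, and fewer than 2 of 3 differed between the lines when any 1 other than 32 h was.

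The 4sU/total ratio had no 24-h rhythm past the test in shCTRL for any Period gene, with adjusted p of 1.00 for Per1, 0.864 for Per2 and 0.656 for Per3 (limma; unadjusted p = 0.887, 0.143 and 0.0234), where 0.0184% of tested genes passed. In shBmal1 Per3 passed (0.17 ± 0.047, adjusted p = 0.0462), against 18.0% of tested genes. That call ended when any 1 time point other than 30 or 36 h was left out, at adjusted p up to 0.154. The lines differed for 0 of 3, against 0.0920%; of these, the unadjusted p of Per3 was 0.0419.

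No Period gene had a 12-h rhythm past the test, which was run in total exon and 4sU intron RNA because the study's title names 12-h patterns. In total exon RNA 0 of 3 passed in shCTRL, where 0% of tested genes did, and 0 of 3 in shBmal1, where 0.0183% did. The largest 12-h amplitude there was 0.19 ± 0.048 for Per2 in shBmal1 (limma adjusted p = 0.0778, unadjusted p = 0.00268), and Per1 in shCTRL had 0.15 ± 0.051 (unadjusted p = 0.0266). In 4sU intron RNA 0 of 3 passed in either line, as did 0% of tested genes; in shBmal1 all 3 had an unadjusted p below the threshold, at 0.00102 for Per2 (0.25 ± 0.055), 0.00274 for Per3 (0.19 ± 0.046) and 0.0297 for Per1 (0.15 ± 0.052). Without the 32 h libraries 1 of 3 passed in shBmal1 total exon RNA, where 1975 of 10906 tested genes then passed. In shBmal1 4sU intron RNA 2 of 3 did, where 696 of 10494 tested genes then passed.

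The 3 genes moved together in the control and less so in the hairpin line. Over the 12 time points of shCTRL total RNA Pearson's r was 0.966 between Per2 and Per3, 0.952 between Per1 and Per3 and 0.906 between Per1 and Per2. Over the 12 of shBmal1 it was 0.761, 0.180 and 0.037. Each r describes 12 libraries that the genes share and neighbouring times that are not independent.

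For each Period gene, the 5 genes with the highest r over the 12 shCTRL total exon values were listed. Those of Per1 were Bhlhe40 (r = 0.986), a clock repressor, Dbp (0.973) and Tef (0.965), which encode D-box activators, the taurine transporter gene Slc6a6 (0.960), and Zfp706 (0.960). Over the shBmal1 series r with Per1 was 0.562 for Bhlhe40, 0.366 for Dbp, 0.097 for Tef, -0.525 for Slc6a6 and -0.611 for Zfp706. Because the listed genes were picked for a high r in shCTRL, a lower r in shBmal1 follows in part from that choice. Per2 was most like the cryptochrome gene Cry2 (0.972), Tspan4 (0.969), Per3 (0.966), Mthfd1l (0.959), a mitochondrial folate enzyme gene, and Mgat5 (0.953), a glycosyltransferase gene. Of these, Mthfd1l had an r of 0.950 with Per2 in shBmal1, Per3 one of 0.761, Tspan4 0.310, Mgat5 0.212 and Cry2 -0.096. Per3 was most like Slc6a6 (0.984), Tef (0.977), the growth factor gene Vegfd (0.969), Per2 (0.966) and Tspan4 (0.965). In shBmal1 the r of Per3 was 0.812 with Tef, 0.761 with Per2, 0.468 with Slc6a6, 0.407 with Tspan4 and -0.294 with Vegfd.

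Against other clock genes, the Period peaks came on the far side of the cycle from Arntl, which peaked at 35.9 ± 0.19 h in shCTRL total RNA. Its r there was -0.984 with Per1, -0.938 with Per3 and -0.869 with Per2, and in shBmal1 -0.109, -0.740 and -0.685. Nr1d1, the REV-ERB alpha gene, peaked at 44.2 ± 0.14 h and Dbp at 47.4 ± 0.20 h, ahead of the Period genes. Cry2 peaked at 25.2 ± 0.63 h, among them, and Cry1, the later-peaking repressor gene, at 29.1 ± 0.15 h. In total exon RNA Per3 was lower in shBmal1 as Dbp (-1.31 ± 0.084, limma adjusted p = 2.68e-11) and Nr1d1 (-1.56 ± 0.055, 2.62e-15) were. Per2 was higher there as Cry1 (0.67 ± 0.045, 5.39e-11) and Cry2 (0.43 ± 0.057, 1.34e-06) were, although by less. In 4sU intron RNA Cry1 (0.85 ± 0.062, 3.30e-09) and Cry2 (0.31 ± 0.072, 0.00185) were higher as well, whereas Per2 was not (-0.13 ± 0.055, 0.0609).

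The other genes of the pathway are given as counts in total exon RNA, beside a median line difference of 0.01 over all tested genes, of which 34.4% were higher and 33.1% lower in shBmal1. Among 12 tested E-box targets and repressors of the clock 2 were higher in shBmal1 (Cry1 and Cry2) and 5 lower, Nr1d2 (-1.68 ± 0.072) and Nr1d1 among them, with a list median of -0.16. Of these, 11 had a 24-h rhythm in shCTRL and 6 in shBmal1, and 9 differed between the lines, where 3.60%, 11.1% and 0.807% of all tested genes did. Their median amplitude was 0.75 in shCTRL and 0.27 in shBmal1, against 0.08 and 0.10 over all tested genes. The Period amplitudes of 0.78 to 1.36 in shCTRL lay above that list median. Among 6 clock activators and regulators of the RRE and D-box 1 was higher (Nfil3, a D-box repressor gene, 1.23 ± 0.096) and 3 lower, with Arntl and Rora (-1.19 ± 0.095) as examples, and 2 were rhythmic in shCTRL. In 4sU intron RNA the balance of that list was the other way, with 3 of 5 tested genes higher, 1 lower and a list median of 0.17. Arntl itself was higher there by 0.57 ± 0.081 (limma adjusted p = 1.57e-05), and by 0.11 on RPKM as deposited, with shBmal1 higher at 5 of 12 time points.

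Genes whose proteins bind, modify or degrade PER and CRY differed between the lines at shares near those of all tested genes. Of 34 tested 13 were higher and 11 lower in shBmal1 (list median 0.02), 1 was rhythmic in shCTRL and 6 in shBmal1, and the lines differed in rhythm for 0, beside 34.4%, 33.1%, 3.60%, 11.1% and 0.807% of all tested genes. The median amplitude in shCTRL was 0.06, against 0.08 over all tested genes. Mdm2 (0.88 ± 0.064), a ubiquitin ligase known to act on PER2, and Timeless (0.53 ± 0.052) were highest among those that passed. Ddx5, an RNA helicase of the PER complex, was lower (-0.45 ± 0.059), as was Sirt1 (-0.52 ± 0.081), a deacetylase acting on PER2, whose RPKM rested on an exon length of 3888 bases in shCTRL and 4403 in shBmal1.

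Genes of the other inputs to Per1 and Per2 are given beside the same shares of all tested genes. Of 23 tested CREB, serum and immediate early genes 8 were higher and 11 lower in shBmal1 (list median -0.12), 0 were rhythmic in shCTRL and 6 in shBmal1, and 0 differed in rhythm. The shares over all tested genes were 34.4% higher, 33.1% lower, 3.60% rhythmic in shCTRL and 11.1% in shBmal1, and the median shCTRL amplitude was 0.12 in the list against 0.08 over all. Btg2 was higher (1.45 ± 0.065) and Egr1 lower (-0.69 ± 0.11); the value of Crem (1.54 ± 0.085) rested on exon lengths of 2914 bases in shCTRL and 602 in shBmal1. Among 10 tested glucocorticoid receptor targets 3 were higher, with Ddit4 at 0.81 ± 0.066, and 6 lower, with Klf9 at -0.43 ± 0.068; 3 were rhythmic in shCTRL, 2 in shBmal1 and 0 differed in rhythm, and the median shCTRL amplitude was 0.13.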

How the data were processed

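Total RNA and 4sU RNA were measured in 48 libraries of 4 groups, 12 time points each. The submitters' processing notes name Trim Galore, HOMER 4.11.1 and the builds mm10 and GRCm38.p6. Which aligner was used is not given in sources used here. The authors deposited RPKM per gene over exons and over introns for 11313 genes, scaled to each library's total. Library totals and gene lengths were recovered from the steps in the deposited RPKM, and the step was tested on simulated data, with intron totals set against 1 reference library (shCTRL total RNA), whose intron total was assumed to equal its exon total.

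The RPKM of each kind of RNA were scaled by the median ratio to the geometric mean library and put on a log2(value + pseudocount) scale, adding 0.1 to exon and 0.02 to intron values, so that fold changes of weakly expressed genes are understated. The filter required mean RPKM of 0.5 (exons) or 0.1 (introns), and genes past it were tested with limma 3.58.1 in R 4.3.3 (trend, robust). The model had a mean and 24-h and 12-h cosine and sine terms per line, with 14 residual degrees of freedom. P-values were adjusted by Benjamini-Hochberg over all genes tested and called below 0.05; the fit was tested on simulated data. The low-value filter was passed by 3 of 3 Period genes in each kind of RNA. Spike-ins named in the labels' protocols were not analysed here.

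The Period genes and the gene lists were chosen with earlier results of these data known. Genes named beside them were the 5 most alike in shCTRL, up to 4 per list (the 2 highest and the 2 lowest line differences past the test), and Arntl, Cry1, Cry2, Nr1d1 and Dbp. Alternatives were other scalings, pseudocounts, filters and model terms, the time point as a replicate block, and leaving out each time point.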

Additional observations from a re-analysis of the deposited data

Results flagged for a closer look

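The 24-h pattern of a Period gene differed between the lines by the test of the difference itself (limma adjusted p over all tested genes) in 13 of the cases tested. The test was not passed by Per1 in total intron RNA (0.0998) and exon minus intron (0.190). Nor was it passed by any Period gene in the 4sU/total ratio (0.206 to 0.851). In total exon RNA the adjusted p was 8.99e-05 for Per1, 7.53e-08 for Per2 and 0.000618 for Per3. In 4sU exon RNA it was 0.000246 for Per1, 3.23e-05 for Per2 and 0.0214 for Per3. In 4sU intron RNA it was 0.0229 for Per1, 0.000323 for Per2 and 0.00564 for Per3, and in total intron RNA 0.000148 for Per2 and 0.00612 for Per3. For total exon minus 4sU intron it was 0.0495 for both Per2 and Per3. There fewer than 2 of 3 passed when any 1 time point other than 32 h was left out. With a linear term for time, RPKM as deposited or no filter 0 did. Of all tested genes 0.807% passed in total exon, 1.06% in 4sU exon, 0.286% in 4sU intron and 0.0999% in total intron RNA. For exon minus intron the share was 0.107%. In each of the exon and intron cases the amplitude was smaller in shBmal1.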

How the results depend on the processing

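Of 576 counts of Period genes past the test under other settings, 475 stayed within 1.5 times the reported count and 101 did not. Of 1092 single differences and amplitudes, 1004 kept their direction and side of the threshold and 88 did not. Of the 88, 3 changed sign, all of them line differences, since an amplitude is always positive and cannot change sign. The Per3 line difference in total exon, 4sU exon, total intron and 4sU intron RNA kept its direction and side of the threshold throughout, where the gene was tested. The shCTRL rhythms in those 4 kept their side of the threshold. With a filter 10 times stricter only Per1 was tested (Per1 and Per2 in 4sU exon RNA): 1 Period gene then passed for the 24-h rhythm of shCTRL, of shBmal1 and their difference in total exon and 4sU intron RNA, for the shCTRL rhythm in total intron RNA and for the ratio's line difference, and 0 for the line difference in total exon, total intron and 4sU intron RNA, the total intron rhythm of shBmal1 and its difference, the ratio's shBmal1 rhythm and every result of exon minus intron. The line difference passed for 4865 of 6737 tested genes in total exon, 1976 of 2936 in total intron and 1825 of 3668 in 4sU intron RNA. The ratio gave 2572 of 6414, and 2046 for its shBmal1 rhythm. The shCTRL rhythm, the shBmal1 rhythm and their difference passed for 334, 1018 and 98 in total exon RNA. In total intron RNA 58, 216 and 4 did, and in 4sU intron RNA 42, 404 and 25. Exon minus intron gave 1502 of 3304 for the line difference and 10, 509 and 100 for the rhythms. With a linear term for time the shBmal1 24-h rhythm passed for 0 in total exon and total intron RNA and the ratio and for 1 in 4sU exon RNA, and exon minus intron passed for 0 in shCTRL, shBmal1 and their difference. Of all tested genes 11 of 10906, 1 of 10011, 0 of 10866 and 10 of 11011 passed in that order. For exon minus intron 3, 2 and 1 of 10294 did. On RPKM as deposited the line difference passed for 3 in 4sU intron RNA, where 9652 of 10509 tested genes passed and the median of all genes moved by -0.45. The total intron shBmal1 rhythm passed for 1 (437 of 10019 tested genes) and the ratio's shBmal1 rhythm for 0 (1872 of 10870). Exon minus intron passed for 1 in shCTRL (16 of 10309) and 0 in shBmal1 (222) and the difference (3). The line difference of Per1 4sU introns was -0.44 and that of Per3 exon minus intron 0.29, both of opposite sign. With intron RPKM on exon totals and no scaling, chosen after seeing the data, the counts of Period genes were 2 for the 4sU intron line difference, 1 for the total intron shBmal1 rhythm, and for exon minus intron 1 in shCTRL and 0 in shBmal1 and the difference. Of all tested genes 4575 of 10668, 437 of 10019 and, for exon minus intron, 17, 203 and 3 of 10438 passed. Without the 12-h terms 1 passed for the total intron line difference, the exon minus intron rhythm of shCTRL and its difference. Of all tested genes 5374 of 10011, 15 of 10294 and 17 of 10294 passed in that order. A pseudocount 10 times larger gave 1 for the total exon line difference and the total intron shBmal1 rhythm, 2 for the 4sU intron line difference and 0 for exon minus intron in shBmal1. Of all tested genes 7370 of 10906, 533 of 10011, 4696 of 10494 and 527 of 10294 passed in that order. A pseudocount 10 times smaller gave 2 for exon minus intron in shBmal1 (311 of 10294 tested genes) and 0 for its difference (4 of 10294). No filter also gave 0 for that difference (3 of 11313). With trimmed mean scaling no count moved.

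Leaving out each time point in turn gave these ranges for the counts that moved most relative to the reported count. In total exon RNA the range was 0 to 1 (12-h, shBmal1). In total intron RNA it was 1 to 2 (24-h, shBmal1) and 1 to 3 (difference). In 4sU intron RNA it was 1 to 2 (line difference), 1 to 3 (difference) and 0 to 2 (12-h, shBmal1). For the ratio it was 0 to 1 (24-h, shBmal1). Exon minus intron gave 0 to 2 (shCTRL), 0 to 1 (shBmal1) and 0 to 2 (difference). Smaller moves of a count are not in this list. In total exon RNA Per1 passed for the line difference without the 24, 30, 34 or 44 h libraries. Its shBmal1 24-h rhythm there did not pass without the 30, 34, 40 or 46 h libraries. The 12-h counts of shBmal1 moved without 32 h, where 1975 of 10906 tested genes passed in total exon RNA and 696 of 10494 in 4sU intron RNA. Without 32 h the line difference of Per1 4sU introns was -0.0091, and with each other time point left out it was up to 0.063. The time point as a replicate block, with the cosine terms left out, gave 1 Period gene (Per3 in total exon, 4sU exon and total intron RNA, Per1 in the ratio) for the line difference in each. Of all tested genes 7180 of 10906, 5749 of 11011, 5286 of 10011 and 2349 of 10866 passed in that order. Per2 in total exon RNA had an adjusted p of 0.405 (limma) at the same difference of 0.17. By construction the residual of that fit holds any difference in rhythm. Same-numbered libraries of the lines shared a time point, and the labels name no other link between them. The correlation of their deviations from the line means over 10906 genes in total exon RNA was -0.18 to 0.42 (median 0.24), above 0.1 in 9 of 12 pairs, and 5 of 12 shCTRL libraries correlated best with their own number. Depth limits Per3 least in exons (at least 398 reads) and most in shBmal1 total introns (203 to 425 reads).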
